A study of Mus musculus with 4 samples.

Results

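Complement and coagulation are protease systems of blood plasma, and most of their circulating proteins come from the liver. Their genes were described here as a set of 46 named genes, 22 of complement and 24 of coagulation and fibrinolysis, in RNA sequencing of mouse liver. The members were taken by their gene symbols from 24346 listed genes, with no threshold on their values. All 46 were listed and all 46 had a mean of at least 0.5 FPKM, so each was among the 12299 genes tested. Male C57BL/6 mice, 8 weeks old when the diets began, were fed for 3 weeks. The control group received the NASH diet (for nonalcoholic steatohepatitis), which is rich in fat, cholesterol and sucrose and holds bile salt, and the 7KC group received the NASH diet with 7-ketocholesterol (7KC), an oxidized derivative of cholesterol. Each group had 2 libraries, and both groups received the NASH diet, so the comparison shows what accompanied 7KC on that background and nothing about the NASH diet itself. Nothing in the sample labels says how libraries relate to single animals, so the p-values measure only the spread between these libraries, which may be in part technical.

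Complement is started by C1 or by mannose-binding lectins with their proteases, is amplified by the alternative pathway, converges on the cleavage of C3 and C5, and ends in the membrane attack complex. Coagulation is a chain of proteases that ends with thrombin cutting fibrinogen to fibrin, which plasmin later dissolves, and serine protease inhibitors restrain each step. In liver the hepatocyte is the main source of most of these plasma proteins. Properdin and the receptors for the small fragments of C3 and C5 belong mainly to myeloid cells, and thrombomodulin and von Willebrand factor to endothelial cells. By this general knowledge 38 members were counted as hepatocyte-made, 4 as myeloid (Cfp, C3ar1, C5ar1 and Fgl2) and 2 as endothelial (Thbd and Vwf). F3 and Cfd, with several or other sources, were in neither group. Of the hepatocyte-made members, C3, C1ra, Serping1, C4b, C2, Cfb and Pros1 are also made by other liver cells.

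Values were FPKM, the fragments of a gene per length of its exons and relative to the depth of the library. Each library held roughly 13640000 to 16980000 reads, as estimated from the steps of the low values. Hepatocyte markers dominated every library, with Alb between 18990 and 41550 FPKM. The 38 hepatocyte-made members had means of 25.6 to 3584 FPKM and at least 551 reads in each library, whereas the 6 myeloid and endothelial members had means of 1.57 to 44.3 FPKM. The summed FPKM of the tested genes was 684478 and 670691 in the control libraries but 619205 and 556389 in the 7KC libraries, so results are also given with all libraries brought to an equal sum. Levels of cell type markers differed with the groups. The summed level of 10 monocyte and macrophage markers was 713 and 491 FPKM in control livers against 1324 and 2047 FPKM in 7KC livers. Of these 10 markers 9 were higher at an unadjusted p under 0.05, where 12% of all genes were, and none passed the adjusted threshold. As a share of all FPKM, they made up 0.104% and 0.0731% in control livers and 0.214% and 0.368% in 7KC livers. Of the 10 hepatocyte markers, 7 were lower in both 7KC libraries, where 27.4% of all genes were. Their median log2 change over all 10 was -0.52. As a share of all FPKM, the 10 made up 11.1% and 9.26% in control livers and 8.68% and 7.25% in 7KC livers. In bulk tissue, fewer cells of a type and less RNA per cell cannot be told apart.

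Dietary 7KC was accompanied by a higher level of Fgl2, the prothrombinase fibrinogen-like protein 2, and by slightly lower levels of many plasma factors that single tests did not resolve. Of the 46 members, 36 had a log2 change below 0 and 10 above 0, with a median of -0.28 against -0.03 over all genes tested. After adjustment over all genes tested (limma, Benjamini-Hochberg), 1 member, Fgl2, was higher in the 7KC group, against 0.48% of all genes tested, and 0 members were lower, against 0.0244% of all genes. At an unadjusted p under 0.05, 2 members were higher, where 12% of all genes were, and 10 were lower, where 5.81% of all genes were. With the libraries rescaled to the same sum the split at an unadjusted p under 0.05 became 7 higher and 1 lower, where 19.2% of all genes were higher and 1.12% lower. After quantile normalization it was 4 and 4, where 10.3% of all genes were higher and 7.61% lower. In 25 members both 7KC libraries lay below both control libraries, which is 54.3% of the members against 27.4% of all genes. In 5 members (Fgl2, C5ar1, Cfp, C2 and Serping1) both lay above, or 10.9% against 25.1% of all genes, and in the other 16 the groups overlapped. After rescaling to the same sum these counts were 18 lower and 7 higher, while 7.86% of all genes lay lower and 46.5% lay higher. After quantile normalization they were 19 lower and 7 higher, while 34.3% of all genes lay lower and 21% lay higher.

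**Figure D1:**
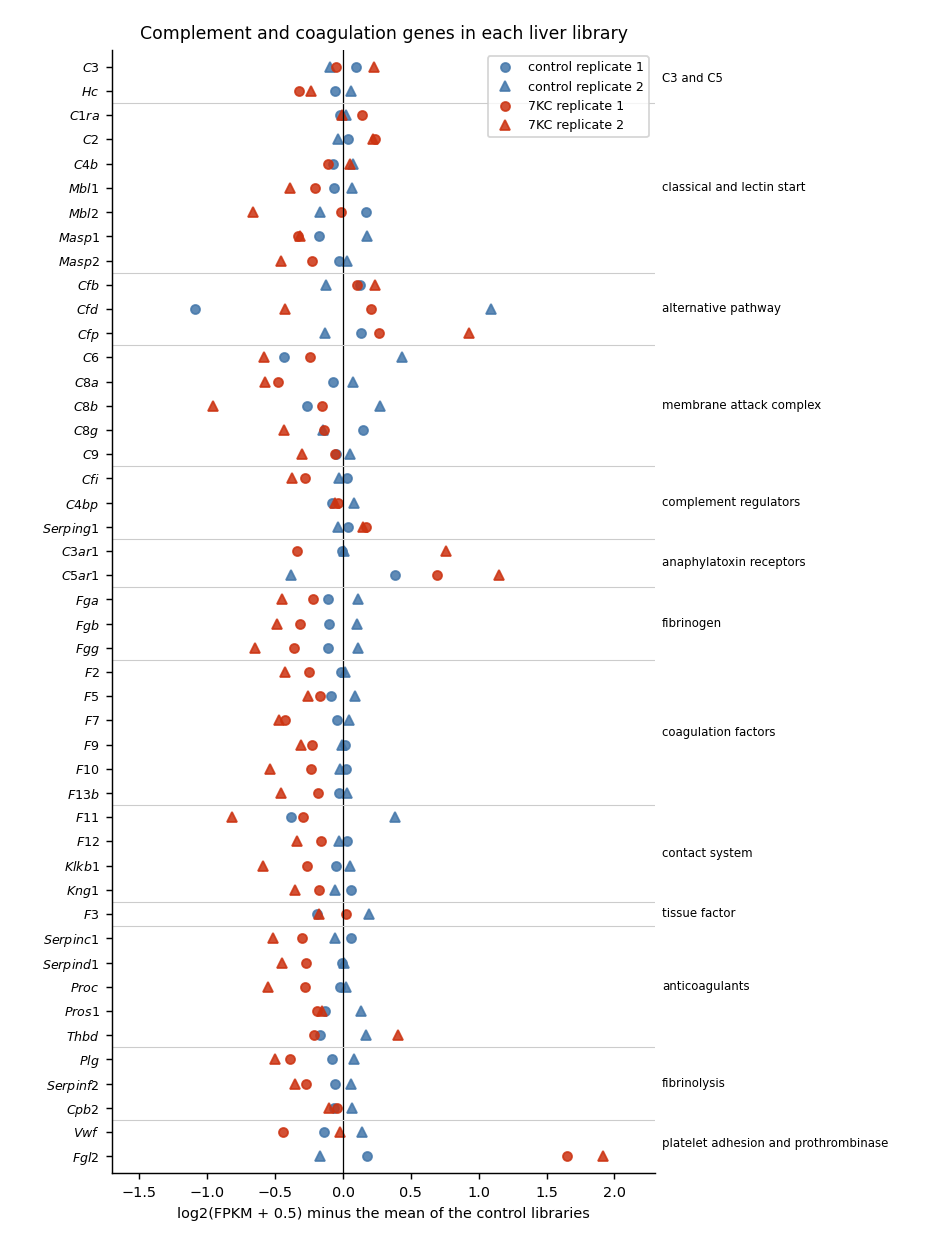
Each row is 1 member, grouped by role, and the horizontal axis gives log2(FPKM + 0.5) in each of the 4 libraries minus the mean of the 2 control libraries. Both 7KC libraries (red) lie left of both control libraries (blue) in 25 members and right of them in 5, with Fgl2 farthest right. On the scale of equal sums these counts are 18 and 7.

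The median log2 change of the hepatocyte-made members lay below that of all genes. That of the myeloid and endothelial members lay above it, mostly through the myeloid members. Of the 38 hepatocyte-made members, 33 had a log2 change below 0, which became 28 after rescaling to the same sum and 30 after quantile normalization. Their median was -0.32, which corresponds to 0.801 of the control level. In 25 of them, or 65.8%, both 7KC libraries lay below both control libraries, and in 2, C2 and Serping1, both lay above, where 27.4% of all genes lay lower and 25.1% higher. After rescaling to the same sum these counts were 18 and 4, where 7.86% of all genes lay lower and 46.5% higher. After quantile normalization they were again 18 and 4, where 34.3% of all genes lay lower and 21% higher. Of the 6 myeloid and endothelial members, 5 had a log2 change above 0, with a median of 0.40. The 4 myeloid members had log2 changes of 0.21 to 1.78, while the 2 endothelial members stood at 0.10 for Thbd and -0.23 for Vwf.

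The distance of the hepatocyte-made members from the median of all genes depended on the scale. The medians of both sets of members moved when a 7KC library was left out. The median of all genes shifted by 0.19 after rescaling to the same sum. Relative to the median of all genes, the hepatocyte-made members stood at -0.30 as deposited and at -0.28 after that rescaling, but at -0.07 after quantile normalization, which takes out changes shared by genes of like abundance. The myeloid and endothelial members stood at 0.43 relative to all genes on each of these 3 scales. Without 7KC replicate 2 their median log2 change dropped to 0.03, and without 7KC replicate 1 it was 0.84. That of the hepatocyte-made members was -0.22 without 7KC replicate 2 and -0.41 without 7KC replicate 1. Between the 7KC libraries, 32 of the 38 hepatocyte-made members were lower in replicate 2 than in replicate 1, at a median ratio of 0.887, and 7KC replicate 2 was also the library with the highest summed monocyte and macrophage markers. The part of cell composition in these medians was not tested.

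**Figure D2:**
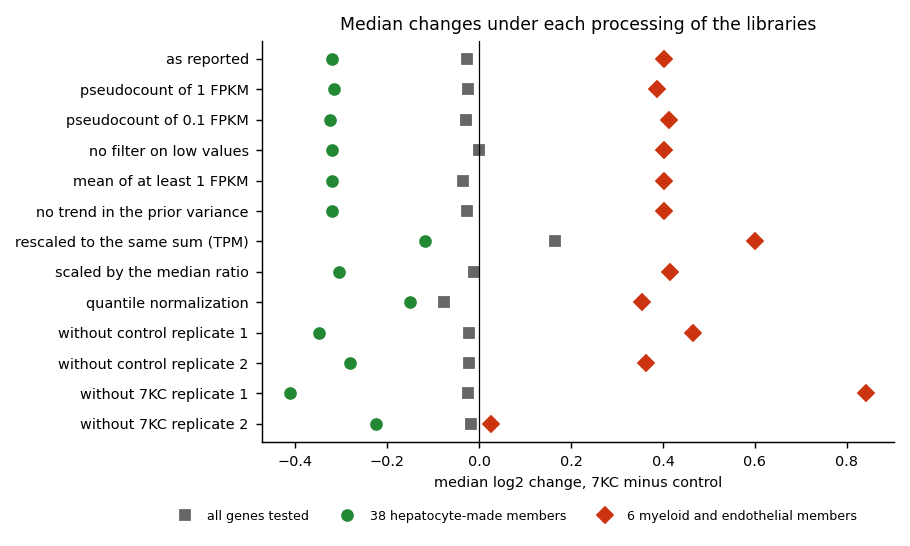
Median log2 change of the 7KC group against the control group (horizontal axis) for all genes tested (squares), the 38 hepatocyte-made members (circles) and the 6 myeloid and endothelial members (diamonds), under each processing of the libraries. The circles run from -0.41 to -0.12 and the diamonds from 0.03 to 0.84. Rescaling to the same sum moves all genes to 0.17, and without 7KC replicate 2 the diamonds lie at 0.03.

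Fgl2 was the member with the largest change. Its protein can cleave prothrombin to thrombin at cell surfaces, and a secreted form restrains T cells. The gene lies on chromosome 5 (chr5:21372642-21378374, plus strand, mouse genome GRCm38). Its level was 6.66 and 5.13 FPKM without 7KC and 19.4 and 23.5 FPKM with it. These rest on roughly 254 to 1158 reads per library, and the groups lay well apart. The group means were 5.90 ± 1.08 and 21.5 ± 2.89 FPKM (SD, n = 2 each), a 3.64-fold difference. Fgl2 rose by a log2 change of 1.78, SE 0.17, with an adjusted p of 0.0327 over all genes tested. Its log2 change was between 1.61 and 2.01 in the 13 other ways of processing, with adjusted p values of 0.0143 to 0.246, and it remained past the threshold in 7 of them. The call was lost without the filter on low values (adjusted p = 0.120), without a trend in the prior variance (adjusted p = 0.0522), with the replicate number as a block (adjusted p = 0.167), without control replicate 2 (adjusted p = 0.0644), without 7KC replicate 1 (adjusted p = 0.152) and without 7KC replicate 2 (adjusted p = 0.246).

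The stretch around the Fgl2 start site is printed because Fgl2 was the only member past the threshold. It spans 250 bases before to 50 bases after the start site in RefSeq (build GRCm38.p6, chr5:21372423-21372722, plus strand), and the capitals mark a match to TTCNNNGAA, the spaced palindrome that STAT factors bind, 36 to 28 bases before the start site.
Fgl2: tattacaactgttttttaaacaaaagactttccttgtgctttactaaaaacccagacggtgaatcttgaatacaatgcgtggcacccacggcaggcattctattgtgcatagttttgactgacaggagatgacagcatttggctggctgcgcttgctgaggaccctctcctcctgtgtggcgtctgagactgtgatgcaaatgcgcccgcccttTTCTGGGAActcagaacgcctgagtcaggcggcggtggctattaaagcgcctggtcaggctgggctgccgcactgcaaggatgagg

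Of the other myeloid members, C5ar1 and Cfp were higher in both 7KC libraries and C3ar1 was not. C5ar1, the receptor for the C5a fragment on neutrophils and macrophages, was at 2.94 and 1.52 FPKM with the control diet and 3.77 and 5.36 FPKM with 7KC. The groups did not overlap. Its log2 change was 0.92, SE 0.30, with an unadjusted p of 0.0265 and an adjusted p of 0.219. Cfp encodes properdin, which stabilizes the alternative pathway convertase. It was at 37.98 and 31.5 FPKM in control livers against 41.7 and 66.2 FPKM in 7KC livers, with a log2 change of 0.60, SE 0.24, and an adjusted p of 0.289. The higher mean of the 7KC group came mostly from replicate 2. C3ar1, the receptor for C3a, was at 1.83 and 1.85 FPKM without 7KC and 1.35 and 3.45 FPKM with it. The 7KC libraries lay on either side of the controls, and the log2 change was 0.21 (SE 0.37, adjusted p = 0.7999), which turned to -0.34 without 7KC replicate 2.

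Set against the summed monocyte and macrophage markers of the same library, the 4 myeloid members parted. Lyz2 alone made up 65.4% to 77.3% of that sum. These ratios were chosen after the values had been seen and carry no test. No T cell markers were set beside these members, and which cells held their messages was not tested. Fgl2 was 0.934% and 1.05% of the summed markers in control livers against 1.47% and 1.15% in 7KC livers. C5ar1 was 0.412% and 0.310% with the control diet and 0.285% and 0.262% with 7KC. Against the single markers, Fgl2 was higher without overlap for 6 of 10, lower for Ly6c2 and overlapping for 3, and C5ar1 was lower for 6 and overlapping for 4. Without Lyz2 in the sum, C5ar1 overlapped between groups and Fgl2 was still higher. Cfp went from 5.32% and 6.43% in the control libraries to 3.15% and 3.23% in the 7KC libraries. C3ar1 went from 0.256% and 0.376% to 0.102% and 0.168%. Against the single markers C3ar1 was lower for all 10 and Cfp for 8. All 10 markers had a log2 change above 0. In 9 of them the 7KC libraries were both above the controls, where 25.1% of all genes were. Among the leading ones, Lyz2 was at 538 and 321 FPKM with the control diet and 995 and 1583 FPKM with 7KC, and Ly6c2, a marker of recruited monocytes, at 11.1 and 5.39 against 44.2 and 42.2 FPKM. Of the 6 markers of resident Kupffer cells, Timd4, Marco and Cd5l were higher in both 7KC libraries, Cd163 was lower, and Clec4f and Folr2 overlapped.

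**Figure D3:**
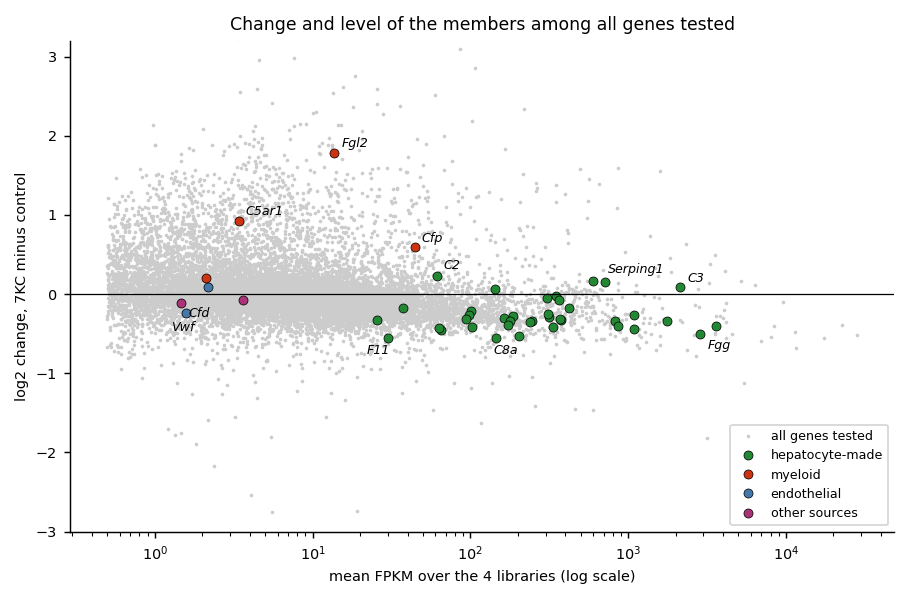
Log2 change of the 7KC group against the control group (vertical axis) by mean FPKM over the 4 libraries (log scale) for the 12299 genes tested (grey) and the 46 members, coloured by source. The hepatocyte-made members lie between 25.6 and 3584 FPKM and mostly below 0, while the myeloid members lie between 2.12 and 44.3 FPKM and above 0, with Fgl2 at 1.78.

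The 3 fibrinogen chains were lower in both 7KC libraries, and none passed the adjusted threshold. They are among the most abundant messages in these livers and are coded side by side on chromosome 3, Fgg and Fga 11026 bases apart and Fga and Fgb 6.5 kb apart. Fga, the alpha chain, was at 1828 and 2129 FPKM in control livers against 1692 and 1441 FPKM in 7KC livers. Fgb, the beta chain, was at 3796 and 4364 FPKM against 3272 and 2904 FPKM. Fgg, the gamma chain, was at 3105 and 3613 FPKM against 2610.3 and 2134 FPKM. The groups did not overlap for any chain, and 27.4% of all genes lay lower without overlap. Their log2 changes were -0.34, SE 0.19, for Fga, -0.40, SE 0.20, for Fgb, and -0.50, SE 0.21, for Fgg, with adjusted p values of 0.405, 0.369 and 0.298. The chains form a hexamer with equal numbers of each, and the level of Fgg per Fga was 1.70 in both control libraries against 1.54 and 1.48 with 7KC. Fgb per Fga was 2.08 and 2.05 against 1.93 and 2.01. A factor common to a library cancels in these ratios, but quantile normalization moves them: there the log2 changes were -0.19 for Fga, -0.10 for Fgb and -0.29 for Fgg.

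The start sites of the chains are printed because the 3 genes are neighbours and differ in the motifs searched. The windows, 250 bases before to 50 bases after the start site, are from RefSeq (GRCm38.p6) at chr3:83025903-83026202 (plus strand) for Fga, chr3:83049814-83050113 (minus strand) for Fgb and chr3:83007474-83007773 (plus strand) for Fgg. Capitals mark, in order, matches to TTCNNNGAA (STAT-type), TTGCNNAA (C/EBP-type) and, in Fga only, GTTAATNAT (HNF1-type), each read on either strand. The window of Fgg held no match.
Fga: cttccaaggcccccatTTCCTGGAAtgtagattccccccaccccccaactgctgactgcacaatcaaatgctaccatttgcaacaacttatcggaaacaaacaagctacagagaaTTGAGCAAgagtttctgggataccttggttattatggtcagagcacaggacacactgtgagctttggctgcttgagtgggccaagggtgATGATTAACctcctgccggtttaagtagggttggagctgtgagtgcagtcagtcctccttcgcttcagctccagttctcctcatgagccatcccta
Fgb: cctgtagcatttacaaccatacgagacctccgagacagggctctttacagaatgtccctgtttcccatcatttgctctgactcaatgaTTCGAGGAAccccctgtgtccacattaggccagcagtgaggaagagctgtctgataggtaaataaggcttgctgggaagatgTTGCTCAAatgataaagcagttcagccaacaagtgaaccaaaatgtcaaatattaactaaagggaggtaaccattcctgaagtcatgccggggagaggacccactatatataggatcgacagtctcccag
Fgg: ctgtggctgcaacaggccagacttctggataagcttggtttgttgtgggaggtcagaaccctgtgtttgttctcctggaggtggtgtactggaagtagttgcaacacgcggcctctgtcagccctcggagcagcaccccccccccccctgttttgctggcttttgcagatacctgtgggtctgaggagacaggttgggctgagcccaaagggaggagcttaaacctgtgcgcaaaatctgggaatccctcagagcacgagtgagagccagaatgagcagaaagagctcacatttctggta

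The zymogens and cofactors of the clotting cascade stood below their control levels, and none passed the adjusted threshold. All 6 coagulation factors (F2, F5, F7, F9, F10 and F13b) lay below both controls in both 7KC libraries, with log2 changes from -0.45 to -0.22. F7, which starts clotting together with tissue factor, was at 72.9 and 77.5 FPKM without 7KC and 55.8 and 54.1 FPKM with it. The libraries of a group differed little, and the log2 change was -0.45, SE 0.11, with an unadjusted p of 0.00767 and an adjusted p of 0.129. F10, the protease that activates prothrombin, is the neighbour of F7 on chromosome 8, 1.5 kb away. It was at 199.5 and 193 FPKM against 166 and 135 FPKM, with a log2 change of -0.39, SE 0.14, and an adjusted p of 0.261. F2, prothrombin itself, was at 920.3 and 936 FPKM against 779.6 and 689.98 FPKM. F9 and F5 had log2 changes of -0.27 and -0.22, and F13b, the carrier subunit of the fibrin-linking enzyme, one of -0.32. After rescaling to the same sum, 18 of the 20 hepatocyte-made coagulation members remained below 0 and all 20 were below the median of all genes. On that scale 15 were lower without overlap, where 7.86% of all genes were, in place of 18, where 27.4% were. After quantile normalization 19 were below 0 and 18 were below the median of all genes. There 13 were lower without overlap, where 34.3% of all genes were.

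Of the 4 contact system genes, which start clotting and release bradykinin on surfaces, 3 lay below both controls, where 27.4% of all genes did. Klkb1, plasma prekallikrein, was at 70.1 and 75.5 FPKM with the control diet and 60.3 and 48.3 FPKM with 7KC, with a log2 change of -0.43, SE 0.15, an unadjusted p of 0.0306 and an adjusted p of 0.232. F11 lies 4.7 kb from Klkb1 and is activated by factor XIIa. It was at 26.8 and 46.1 FPKM against 28.6 and 19.7 FPKM, so that the groups overlapped, and had a log2 change of -0.56 (adjusted p = 0.394, SE 0.31). F12 and Kng1, the source of bradykinin, had log2 changes of -0.25 and -0.27. These became -0.05 and -0.06 after rescaling to the same sum and -0.11 and -0.006 after quantile normalization. Kng1 shares sequence with Kng2, which could have exchanged reads with it.

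The hepatocyte-made inhibitors of clotting among the members stood below their control levels as well, and none passed the adjusted threshold. Of the 5 anticoagulant members, 4 were lower without overlap between groups, where 27.4% of all genes were. The endothelial Thbd overlapped, with a log2 change of 0.10. Serpinc1, antithrombin, was at 1021 and 941 FPKM in control livers against 796 and 684 FPKM in 7KC livers, with a log2 change of -0.41, SE 0.16, and an adjusted p of 0.276. Serpind1, heparin cofactor II, was at 267 and 271 FPKM against 223 and 197 FPKM, with a log2 change of -0.36, SE 0.13, and an adjusted p of 0.244. Proc, protein C, which shuts down factors V and VIII, was at 375 and 388 FPKM against 314 and 259.6 FPKM, with a log2 change of -0.42, SE 0.15, and an adjusted p of 0.242. Its cofactor protein S, Pros1, had a log2 change of -0.17, SE 0.13, which turned to 0.03 after rescaling to the same sum. The level of F2 per Serpinc1, procoagulant against inhibitor, was 0.902 and 0.995 in control livers against 0.979 and 1.01 in 7KC livers. The groups overlapped, so no shift between this factor and its inhibitor was detectable.

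In fibrinolysis, Plg, plasminogen, was at 1182 and 1328 FPKM without 7KC and 956 and 887 FPKM with it. The log2 change was -0.44, SE 0.16, with an unadjusted p of 0.0363 and an adjusted p of 0.246. Serpinf2, the plasmin inhibitor, lay below both controls as well, with a log2 change of -0.32, SE 0.13. Cpb2, which protects fibrin from plasmin, had one of -0.08, SE 0.13, which turned to 0.13 after rescaling to the same sum. Plg per Serpinf2 was 2.99 and 3.11 with the control diet and 2.82 and 2.76 with 7KC.

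**Figure D4:**
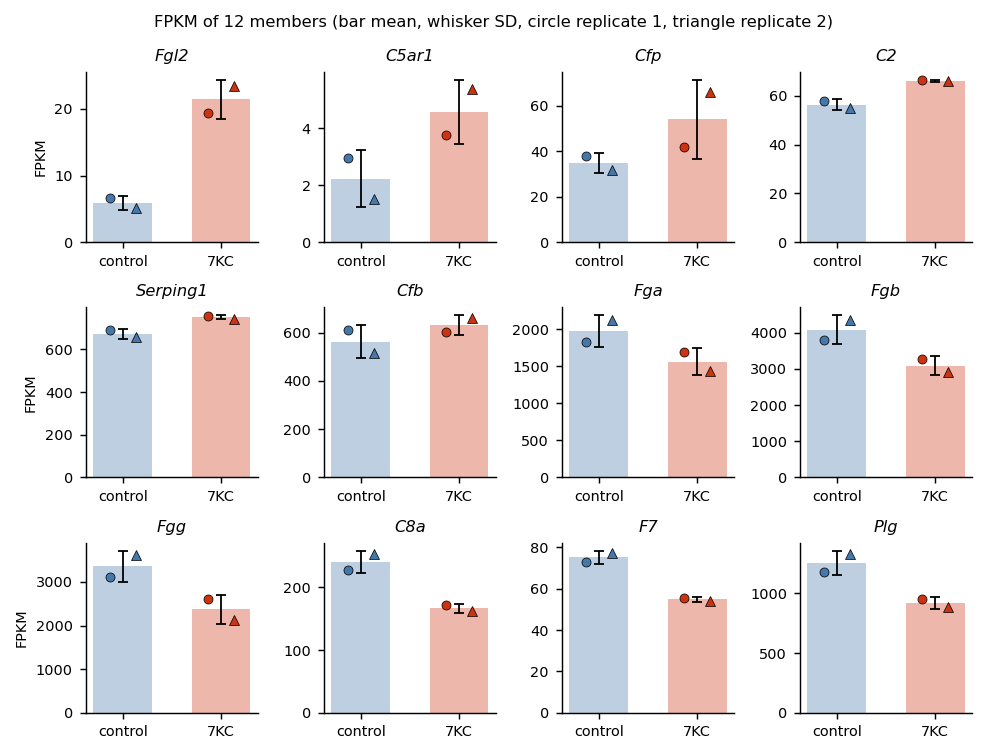
FPKM of 12 members in each library (circle, replicate 1; triangle, replicate 2), with bars for group means from 0 and whiskers for the SD of 2 libraries. Fgl2 stands at 21.5 against 5.90 FPKM. Fga, Fgb, Fgg, C8a, F7 and Plg are lower in both 7KC libraries, and C2 and Serping1 slightly higher.

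The complement members lay on both sides of 0. Of the 18 hepatocyte-made complement members, 13 had a log2 change below 0, and their median was -0.28. The count below 0 became 10 after rescaling to the same sum and 11 after quantile normalization. Below the median of all genes were 13 as deposited, 12 after rescaling and 10 after quantile normalization. Relative to that median the group stood at -0.26, -0.24 and -0.04, and the hepatocyte-made coagulation members at -0.32, -0.31 and -0.11. In 7 of the 18 complement members, or 38.9%, both 7KC libraries lay below the controls, against 27.4% of all genes. In 2, or 11.1%, both lay above, against 25.1% of all genes. The summed FPKM of these 18 genes was 6924 and 6672 in control livers against 6495 and 6601 in 7KC livers, whereas that of the 20 hepatocyte-made coagulation members was 15549 and 17031 against 13324 and 11611. As a share of all FPKM of the library, the complement genes made up 1.01% and 0.994% with the control diet and 1.05% and 1.19% with 7KC, and the coagulation genes 2.27% and 2.54% against 2.15% and 2.08%. C3 is the largest part of the complement sum.

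At the centre of the system, C3 and C5 stood on opposite sides of 0, and neither passed the adjusted threshold. C3 was at 2212 and 1936 FPKM with the control diet and 1999 and 2419 FPKM with 7KC. The groups overlapped, and the log2 change was 0.09 (SE 0.20, adjusted p = 0.852). Hc, the mouse gene of C5, was at 196 and 212 FPKM against 163 and 173 FPKM, without overlap, and had a log2 change of -0.28 (adjusted p = 0.309, SE 0.12). The level of Hc per C3 was 0.0887 and 0.110 in control livers against 0.0816 and 0.0715 in 7KC livers.

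The genes that start the classical and lectin pathways were mixed. C2, the protease of the classical C3 convertase, was at 57.9 and 54.9 FPKM in control livers against 66.3 and 65.9 FPKM in 7KC livers. It was higher without overlap, with a log2 change of 0.23, SE 0.11, and an adjusted p of 0.334. Masp2, the protease of the lectin pathway that cleaves C4 and C2, was at 195 and 203 FPKM against 170.3 and 145 FPKM. It was lower without overlap, with a log2 change of -0.34, SE 0.13, an unadjusted p of 0.0482 and an adjusted p of 0.276. Masp1 and the mannose-binding lectins Mbl1 and Mbl2 had log2 changes of -0.32, -0.30 and -0.34. C1ra, at 0.07, and C4b, at -0.03, were close to 0, and C4b turned to 0.18 after rescaling to the same sum. Both have close relatives (C1rb and C4a) with which reads could have been exchanged.

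In the alternative pathway, Cfb, the protease of its C3 convertase, was at 612 and 514 FPKM without 7KC and 602 and 659 FPKM with it. The groups overlapped, with a log2 change of 0.17, SE 0.16, and an adjusted p of 0.618. Cfb lies next to C2 on chromosome 17, 85 bases apart, and both have log2 changes above 0. Cfd, adipsin, is made mostly by fat cells and was at 0.326 and 3.24 FPKM with the control diet and 1.53 and 0.808 FPKM with 7KC. These values rest on roughly 4 to 32 reads, and its log2 change of -0.11, SE 0.72, reversed to 0.98 without control replicate 2. Of the 6 adipocyte markers, Adipoq, Retn and Plin1 were at 0.353, 0.391 and 0.0873 FPKM in control replicate 2. They were listed at 0 in the other 3 libraries and were too low to be tested. Car3, which other cells also express, was highest in control replicate 2 as well. Lep was listed at 0 in every library. Cidec was highest in 7KC replicate 2, at 2.90 FPKM against 1.69 FPKM in control replicate 2. The cause of the spread in Cfd was not tested.

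The terminal components were below 0 in all 5 cases, with a median log2 change of -0.41, although C9 turned to 0.03 after rescaling to the same sum and C6 to 0.02 without control replicate 2. C8a, the alpha chain of C8, was at 228 and 253 FPKM in control livers against 172 and 162 FPKM in 7KC livers. The spread within groups was small, and the log2 change was -0.53, SE 0.13, with an unadjusted p of 0.0076 and an adjusted p of 0.129, the smallest among the complement members. C8b, its partner 11.1 kb away on chromosome 4, was at 139.8 and 203 FPKM against 151 and 86.6 FPKM. The groups overlapped, with a log2 change of -0.56, SE 0.32, and an adjusted p of 0.411. C8g and C9 had log2 changes of -0.29 and -0.18. The 3 chains of C8 did not keep a fixed proportion among libraries of a group, with C8b per C8a at 0.613 and 0.802 with the control diet and 0.878 and 0.536 with 7KC.

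The soluble regulators went different ways. Cfi, the protease that inactivates C3b and C4b, was at 424 and 408 FPKM without 7KC and 343 and 319 FPKM with it, with a log2 change of -0.33, SE 0.13, an unadjusted p of 0.0475 and an adjusted p of 0.274. Serping1, the C1 inhibitor, which also blocks kallikrein, was at 689 and 657 FPKM against 757 and 743 FPKM. It was higher without overlap, with a log2 change of 0.16, SE 0.14, and an adjusted p of 0.589. C4bp, the C4b-binding protein, was close to 0 at -0.05 and turned to 0.16 after rescaling to the same sum.

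In a ratio of 2 genes of a library a common factor of that library cancels, although quantile normalization can move it. The ratios given here were chosen after the values had been seen and carry no test. Cfb per Cfi, an activator against an inactivator of the alternative pathway, was 1.44 and 1.26 in control livers against 1.76 and 2.06 in 7KC livers. C2 per Hc was 0.295 and 0.258 against 0.407 and 0.381. Serping1 per Klkb1, an inhibitor against a target protease, was 9.83 and 8.70 against 12.5 and 15.4. Serping1 per C1ra, however, was 5.0 and 4.63 against 4.9 and 5.34. Cfb per C3 was 0.277 and 0.265 against 0.301 and 0.273. The ratios of Cfb to C3 and of Serping1 to C1ra thus overlapped between groups, and the other 3 did not.

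The endothelial members and tissue factor showed no difference beyond the spread of their groups. Thbd, thrombomodulin, which turns thrombin into an activator of protein C, was at 1.77 and 2.36 FPKM with the control diet and 1.69 and 2.87 FPKM with 7KC, with a log2 change of 0.10 (adjusted p = 0.877, SE 0.26), which turned to -0.05 after quantile normalization. Vwf, which carries platelets to the injured wall, was at 1.52 and 1.95 FPKM against 1.13 and 1.68 FPKM, with a log2 change of -0.23 (adjusted p = 0.610, SE 0.22). F3, tissue factor, was at 3.17 and 4.28 FPKM against 3.75 and 3.201 FPKM, with a log2 change of -0.08 (adjusted p = 0.855, SE 0.18), which turned to 0.11 after rescaling to the same sum. All 3 overlapped between groups. The 10 endothelial markers overlapped as well, with a median log2 change of 0.02 and a summed level of 132 and 155 FPKM in control livers against 121 and 174 FPKM in 7KC livers. The control and 7KC replicates 2 were above replicates 1 in Thbd, Vwf and in this sum.

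Among 70 other genes of the same systems, 58 were tested. Without overlap between groups, 15 were higher in the 7KC libraries, or 25.9% against 25.1% of all genes, and 27 lower, or 46.6% against 27.4%. At an unadjusted p under 0.05, 11 were higher and 7 lower, where 12% and 5.81% of all genes were. None passed the adjusted threshold in limma. The largest log2 changes above 0 belonged to receptors of leukocytes and vessel wall. Procr, the endothelial protein C receptor, was at 6.51 and 4.18 FPKM without 7KC and 28.7 and 21.1 FPKM with it, with a log2 change of 2.13, SE 0.25, and an adjusted p of 0.0512. Itgam, Itgax and Itgb2, whose products pair into the complement receptors CR3 and CR4 of myeloid cells, had log2 changes of 1.67, 1.62 and 1.59, with adjusted p values of 0.0596, 0.167 and 0.0617. Itgam was itself among the monocyte and macrophage markers. Plaur, the urokinase receptor, had a log2 change of 1.28, with an adjusted p of 0.127.

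The 5 largest log2 changes below 0 in those other genes were in 3 inhibitors of the Serpina1 family, Cfhr2 and Lman1. Serpina1e, a relative of the elastase inhibitor alpha-1-antitrypsin, was at 1062 and 9390 FPKM with the control diet and 1680.2 and 474 FPKM with 7KC, so its log2 change of -1.82 came from 1 control library and the groups overlapped. Its relatives Serpina1d and Serpina1b, which share most of their sequence with it, had log2 changes of -0.64 and -0.52. Cfhr2, a relative of complement factor H, had one of -0.51, and Lman1, which ferries factors V and VIII out of the endoplasmic reticulum, one of -0.46. Their adjusted p values lay between 0.195 and 0.447. C1qa, C1qb and C1qc, which macrophages make and which start the classical pathway with C1ra, had log2 changes of 0.83, 0.84 and 0.86, whereas the hepatocyte-made C1ra stood at 0.07.

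Of the 46 members, 35 were matched to a promoter window of RefSeq by symbol; C2, C4b, Masp1, Cfb, Cfi, Serping1, Kng1, Proc, Thbd, Plg and Vwf were not. Each motif was read on both strands, and no 2 matches in a member's window overlapped. Among 30 windows of hepatocyte-made members, 10 held TTGCNNAA, a C/EBP-type motif, or 33.3% against 10.8% of all 32851 windows of the same length. TTCNNNGAA, the STAT-type motif, was in 7, or 23.3% against 8.3%, namely in C1ra, C8a, F9, Fga, Fgb, Masp2 and Pros1. GTTAATNAT, an HNF1-type motif, was in 4 (C4bp, F13b, Fga and Hc), or 13.3% against 0.8%. The IRF-type motif GAAANNGAA was in 0 of 30, against 8.6% of all windows, and the window of C5ar1 held a match. Members with the STAT-type motif had log2 changes from -0.53 for C8a to 1.78 for Fgl2. These matches describe the letters in the windows only.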

How the data were processed

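RNA was measured in 4 liver libraries (control, n = 2; 7KC, n = 2), grouped by the sample labels. The authors made stranded mRNA libraries and read them from a single end on an Illumina HiSeq. The submitters' processing notes name TopHat2 2.1.1, Bowtie2 2.2.8, SAMtools 0.1.18, Cuffdiff 2.2.1 and the genome build mm10; the annotation and the settings for multi-mapped reads are not given in the sources used here. The authors deposited FPKM values, 1 for each gene symbol in each library. The study's methods name other versions and Cufflinks in place of Cuffdiff, so how libraries were scaled to each other is not settled. As FPKM is relative to the rest of its library, abundant genes can move the others, and genes with close relatives may have exchanged reads.

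Values were compared as log2(FPKM + 0.5), a scale that understates the change of low genes. Genes averaging 0.5 FPKM or more over the libraries, 12299 in all, entered limma 3.58.1 under R 4.3.3 (a linear model with eBayes and a variance trend), with group as the only term, 2 residual and 3.27 prior degrees of freedom, and Benjamini-Hochberg adjustment over all of them at a threshold of 0.05. An exact permutation test of 2 against 2 libraries cannot go below a 2-sided p of 0.333, so the tests rest on variance shared between genes. Lists were described by counts and medians without a test. Means are given with the SD, and log2 changes with the SE of the fit.

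Depth was estimated from the steps of low FPKM values of genes with a single transcript in GENCODE M21 (GRCm38), with a fragment length of 200 bases taken off. Between 70.0% and 72.1% of the values then lay no more than 0.1 from a whole read, where chance gives 20%, so depth is approximate. In the shallowest library 0.5 FPKM at 1000 bases corresponded to 5.5 reads.

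Statistics are given for members with an unadjusted p under 0.05 and no overlap between groups, and for those with the largest log2 change above and below 0 in each role; the others are given by range or counts. Of the other pathway genes, the 5 largest changes in each direction are named; C1qa, C1qb and C1qc were added after their values had been seen. The members, their sources, the lists and the motifs were chosen with earlier results of these data known. Alternatives covered the pseudocount, the filter, the variance prior, the scaling, each library left out and the replicate number as a block. Promoter windows are from RefSeq (GRCm38.p6) and gene positions from GENCODE M21.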

Additional observations from a re-analysis of the deposited data

How the results depend on the processing

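Of 598 values of the 46 members under 13 alternatives, 566 kept their direction and their side of the threshold, 26 turned direction, and 6, all of Fgl2, lost the call. Genes called higher were 59 as reported and 111 with a pseudocount of 1 FPKM, 0 without the filter on low values, 39 without a trend in the prior variance, 402 after rescaling to the same sum, 94 after scaling by the median ratio and 2 to 389 with a library left out. Genes called lower were 3 as reported and 1 without the filter, 1 without the trend, 7 after rescaling and 1 to 52 with a library left out. The members called higher were 1 as reported and 0 without the filter, 0 without the trend and 0 to 1 with a library left out. Fgl2 then had an adjusted p of 0.120 without the filter and 0.0522 without the trend. Members higher without overlap were 5 as reported, where 25.1% of all genes were. With a library left out they were 6 to 9, where 33.7% to 37.3% of all genes were. There 1 library stands for a group and is assumed to vary like the other group. The median of the hepatocyte-made members was -0.117 after rescaling and -0.150 after quantile normalization, and -0.411 to -0.224 with a library left out. That of the myeloid and endothelial members was 0.0254 to 0.841, and the difference of both medians, 0.723 as reported, was 0.249 to 1.25, lowest without 7KC replicate 2. With the replicate block, 0 genes were called higher, 0 lower and 0 members higher, and Fgl2 had an adjusted p of 0.167. The deviations of same-numbered libraries correlated at -0.141. With 2 libraries a group this value cannot decide whether the numbers pair the libraries. With the pairing crossed, chosen after seeing the data, the replicate block called 551 genes higher, 37 lower and 2 members higher.

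Of the 46 members, 12 turned direction under an alternative. After rescaling to the same sum the log2 change was 0.179 for C4b, 0.0779 for Cfd, 0.0254 for C9, 0.159 for C4bp, 0.107 for F3, 0.0314 for Pros1 and 0.130 for Cpb2. After quantile normalization it was 0.107 for C4b, 0.0984 for C4bp, -0.0541 for Thbd and 0.0656 for Cpb2, and with a pseudocount of 0.1 FPKM 0.0286 for Cfd. With a library left out it ran from -0.0497 to 0.225 for C3, -0.00663 to 0.143 for C1ra, -0.109 to 0.0546 for C4b, -1.20 to 0.980 for Cfd, -0.845 to 0.0200 for C6, -0.127 to 0.0327 for C4bp, -0.340 to 0.757 for C3ar1, -0.269 to 0.111 for F3 and -0.214 to 0.406 for Thbd. The cause was not tested. The SE of the members' log2 changes ran from 0.11 for C2 to 0.72 for Cfd, the latter with roughly 4 to 32 reads.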

Other observations

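Markers of further cell types are given here beside the members. The 6 Kupffer cell markers had a median log2 change of 0.34, with single values of 0.92 for Timd4, 0.92 for Marco, 0.65 for Cd5l, 0.02 for Folr2, -0.03 for Clec4f and -0.35 for Cd163. Of 7 neutrophil markers 4 were tested, with a median of 0.58. Of 6 platelet markers, which would accompany trapped platelets, 4 were tested, with a median of 0.08, and Pf4 was at 2.02 and 2.31 against 3.30 and 2.50 FPKM. The 8 stellate cell markers had a median of 0.14, from 1.28 for Col1a1 to -0.46 for Reln. Without overlap 2 were higher (Col1a1 and Ngfr) and 2 lower (Reln and Dcn), or 25.0% each, against 25.1% and 27.4% of all genes. Of the 5 erythroid markers 2 were tested, Hba-a1 and Alas2, with log2 changes of -0.20 and -0.49. Of the 5 exocrine pancreas markers, Cpa1, Pnlip and Prss2 were listed at 0 in every library. Of the 6 adipocyte markers 2 were tested, with a median of -0.62, and Car3, which muscle and hepatocytes also express, was at 385 and 1451 FPKM without 7KC and 370 and 198 FPKM with it. Control replicate 2 was thus apart from the other 3 libraries in Car3 and in Serpina1e. Of the 38 hepatocyte-made members 25 were highest there. Over all 38 the median ratio of control replicate 2 to replicate 1 was 1.066, against 0.983 over all genes tested. Of the hepatocyte markers, Apoa1, Ttr, Cps1 and Ahsg were highest in control replicate 2. Alb, Hnf4a, Asgr1, Ass1, Pck1 and Tat were highest in control replicate 1.

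Plau and Anxa2, which act in plasminogen activation, had log2 changes above 0, opposite to the median of the hepatocyte-made members. They were chosen after their values had been seen. Plau, urokinase, was at 1.58 and 1.25 FPKM with the control diet and 3.23 and 3.65 FPKM with 7KC, with a log2 change of 1.05, SE 0.16, and an adjusted p of 0.0621. Anxa2, which binds plasminogen and its activator at the cell surface, was at 23.0 and 22.0 against 31.7 and 40.2 FPKM, with a log2 change of 0.66, SE 0.15, and an adjusted p of 0.115. Neither passed the adjusted threshold in limma, and their groups did not overlap. F13a1, the catalytic subunit of the fibrin-linking factor XIII, which macrophages make, had a log2 change of 1.04, SE 0.42, and an adjusted p of 0.285. Its values were low, at 0.764 and 0.316 FPKM with the control diet and 0.949 and 2.51 FPKM with 7KC. The higher mean of the 7KC group came mostly from replicate 2. The hepatocyte-made carrier F13b stood at -0.32.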
